A study of Mus musculus with 6 samples.

Results

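Group 2 innate lymphoid cells (ILC2s) lack an antigen receptor and are tuned by cytokines and by surface receptors that T cells also use. Costimulatory receptors such as ICOS, GITR (Tnfrsf18), OX40 (Tnfrsf4) and DR3 (Tnfrsf25) raise their survival or cytokine output when they meet their ligands, and inhibitory receptors such as KLRG1 and the CD200 receptor dampen it. ILC2s are known to carry ICOS together with its ligand, so that neighbouring ILC2s can engage each other. The 10 genes described here are Icos, Cd28, Ctla4, Klrg1, Tigit, Cd200r1, Tnfrsf18, Tnfrsf4, Tnfrsf9 and Tnfrsf25, out of 55394 genes listed, and each was found by its gene symbol, with 1 entry per symbol. The list was built around Icos, whose level was already known to be lower in the exposed group, and asks whether that fall extends to the other receptors. The Abx to Con difference of Icos is therefore given as a description, with no test.

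SMART-seq, a full-length RNA-seq method for small cell numbers, was run on 6 libraries, each from 1000 lung ILC2s sorted from neonatal wild type C57BL/6 mice. In the Abx group, 3 libraries came from pups whose dams drank a broad-spectrum antibiotic cocktail between gestation days 10 and 14. The Con group had 3 libraries, from the offspring of control dams, and the labels name no further allele or agent in either group. The labels do not say whether a library was 1 pup or a pool, nor the day of age, so p-values measure the spread between these libraries alone. Levels are FPKM, fragments per kilobase of exon scaled to the mapped reads of the library, which are per length and can be compared between genes. Total FPKM was 420941 to 449523 in Con and 431613 to 489262 in Abx, and 8574 to 9203 genes reached 1 FPKM in Con against 7074 to 8193 in Abx. The number of reads is unknown, so no counting error can be given, and an entry of 0 is reported as listed at 0, because Polr2h, a subunit of RNA polymerase II, had a 0 in Abx library 3 but 71.3 FPKM in Abx library 2. In such bulk libraries fewer cells of a type and less RNA per cell cannot be told apart.

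The ILC2 identity of the sorted cells was checked on their markers. Gata3, the lineage factor, was at 76.1 to 97.5 FPKM in Con and 33.9 to 95.8 FPKM in Abx, and Il2ra, which encodes the CD25 used in the sort, at 27.9 to 46.0 FPKM and 13.7 to 34.1 FPKM. Il1rl1, the receptor of IL-33, was nearly absent, with at most 2.94 FPKM in Con and 0.03 FPKM in Abx. Sums of marker levels moved with the groups. The 11 T cell markers summed to 262 to 280.2 FPKM in Con and 445 to 527 FPKM in Abx, with 5 of the 6 tested higher in Abx, and the 6 thymocyte markers to 16.2 to 43.9 FPKM and 183 to 195 FPKM. The 8 B cell markers summed to 259 to 305 FPKM and 539 to 596 FPKM, a gap carried by Ighm. Without Ighm the sums overlapped (118 to 195 FPKM and 143 to 181 FPKM), and single markers went both ways. Cd79b and Cd22 were lower in every Abx library than in any Con library. Ms4a1 was higher in every Abx library (3.98 to 5.39 FPKM in Con, 10.8 to 19.8 FPKM in Abx). Of the 6 B cell markers tested, Ighm included, 4 were higher in Abx and 2 lower. The 10 ILC2 markers other than Klrg1 summed to 1593 to 1721 FPKM in Con and 799 to 1207 FPKM in Abx, most of it from the effector genes Arg1 and Areg. Without these the sums overlapped (262 to 303 FPKM and 176 to 289 FPKM), and of the 9 tested ILC2 markers 3 were higher in Abx and 6 lower. The summed level of 5 mast cell and basophil markers was 324 to 439.7 FPKM in Con and 185 to 295 FPKM in Abx, and that of 4 epithelial markers 23.8 to 49.0 FPKM and 52.3 to 76.2 FPKM, the latter gap from Sftpc alone, without which the sums overlapped (12.2 to 17.6 FPKM and 0 to 27.9 FPKM). The sums of the 8 myeloid, 3 endothelial and 3 fibroblast markers overlapped between the groups. The lineage antibodies of the ILC2 stain, meant to keep T, B and NK cells out of the gate, included CD3e, CD4, B220 and NK1.1. How completely they did so in these libraries was not tested. The female-specific transcript Xist was at 3.78 to 5.09 FPKM in Con, while every Abx library listed it at 0, so sex and antibiotic exposure cannot be told apart for any gene below. The part of these differences in the receptor values was not tested.

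The receptors differ in the short cytoplasmic motifs through which they signal, and the coding sequence around each motif is printed to show which members share one. The stretches were read from the coding transcripts of GENCODE M21, 1 per gene (mouse build GRCm38), 5′ to 3′ on the coding strand, and capitals mark the codons of the motif found by a search of the last 60 codons, or of the first 60 for Klrg1, whose start faces the cytosol. The 3 listed genes of the CD28 family carry the docking site of phosphatidylinositol 3-kinase, a tyrosine, then methionine or valine, any residue and methionine.
Icos: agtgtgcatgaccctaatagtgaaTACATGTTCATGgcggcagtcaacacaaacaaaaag
Cd28: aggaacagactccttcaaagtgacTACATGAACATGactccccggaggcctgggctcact
Ctla4: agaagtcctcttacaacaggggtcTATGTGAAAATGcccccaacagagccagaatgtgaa
The codons in capitals lie on the plus strand at chr1:60995560-60995571 in Icos, chr1:60769693-60769704 in Cd28 and chr1:60914646-60914657 in Ctla4, each in a coding exon. Of 21605 mouse proteins, 0.3% hold such a motif in their last 60 codons.

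Klrg1 and Tigit carry the inhibitory tyrosine motif known as ITIM, searched as valine, isoleucine, leucine or serine, any residue, tyrosine, any pair of residues, and leucine, isoleucine or valine. Cd200r1 carries the NPXY motif (asparagine, proline, any residue, tyrosine) through which the CD200 receptor recruits the adaptors DOK1 and DOK2.
Klrg1: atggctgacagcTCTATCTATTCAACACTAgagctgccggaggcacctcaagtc
Tigit: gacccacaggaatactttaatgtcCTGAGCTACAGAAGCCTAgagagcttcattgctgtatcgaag
Cd200r1: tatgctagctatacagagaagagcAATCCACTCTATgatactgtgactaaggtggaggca
These codons lie at chr6:122282782-122282799 on the minus strand, chr16:43649034-43649051 on the minus strand and chr16:44794239-44794250 on the plus strand. The Klrg1 search gave 2 matches, and the one nearest the start codon is shown. An ITIM match occurs in the last 60 codons of 10.8% of proteins and in the first 60 of 7.6%, and an NPXY match in the last 60 codons of 0.4%.

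The TNF receptor superfamily members signal through TRAF adaptors, which bind short acidic motifs, searched here as proline, serine, alanine or threonine, any residue, glutamine or glutamate, and glutamate.
Tnfrsf18: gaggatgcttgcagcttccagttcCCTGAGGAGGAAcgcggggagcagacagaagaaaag
Tnfrsf4: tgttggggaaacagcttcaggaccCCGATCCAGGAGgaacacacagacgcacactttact
Tnfrsf9: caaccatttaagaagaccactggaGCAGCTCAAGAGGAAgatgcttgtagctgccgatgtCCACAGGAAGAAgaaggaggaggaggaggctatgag
The capitals lie on the plus strand within chr4:156028554-156028565 in Tnfrsf18, chr4:156016382-156016393 in Tnfrsf4 and chr4:150944793-150944840 in Tnfrsf9, where 3 matches overlap or follow each other. The stretches of Tnfrsf4 and Tnfrsf9 join 2 exons. Tnfrsf25, which signals through a death domain, had 0 matches in its last 60 codons, and 14.6% of proteins have one.

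The members also share chromosomal neighbourhoods. Cd28, Ctla4 and Icos lie in this order on the plus strand of chromosome 1, from 60716800 (the start of Cd28) to 61000320 (the end of Icos), with gaps of 113.6 kb and 62.1 kb. Tnfrsf4 (chromosome 4 from 156013843 to 156016612) and Tnfrsf18 (from 156026164 to 156028895) are 9.6 kb apart. Tnfrsf9 and Tnfrsf25 are on chromosome 4 as well, Tigit and Cd200r1 on chromosome 16, and Klrg1 on chromosome 6.

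The members are first put in order of their levels in Con, as a description. Tnfrsf18, which encodes GITR, was highest at 407 ± 38.4 FPKM (SD, n = 3), followed by Klrg1 at 272 ± 113 FPKM (SD, n = 3) and Icos at 272 ± 27.3 FPKM (SD, n = 3). The ranges of these neighbours overlapped, that of Klrg1 with those of both others. Icos was above the next gene, Tnfrsf25, in all 3 Con libraries, with no overlap. Tnfrsf25 was at 71.1 ± 11.8 FPKM, Tnfrsf4 at 54.8 ± 30.6 FPKM and Cd200r1 at 29.4 ± 9.80 FPKM (SD, n = 3 each), and neighbours in this order overlapped. The lowest 4 genes were Ctla4 at 13.5 ± 15.5 FPKM, Tnfrsf9 at 13.0 ± 9.38 FPKM, Tigit at 3.22 ± 4.0 FPKM and Cd28 at 1.66 ± 1.45 FPKM (SD, n = 3 each), and their ranges overlapped too. Of the 9 pairs of neighbours in the order, only Icos and Tnfrsf25 did not overlap.

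**Figure D1:**
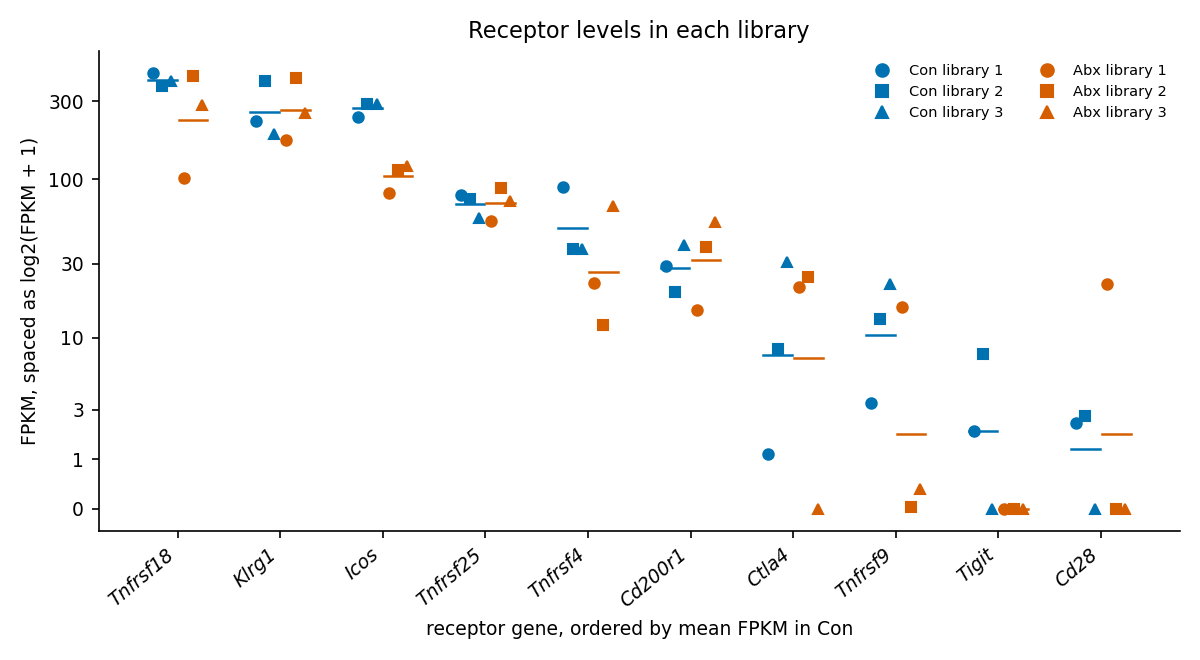
FPKM of the 10 receptor genes in each library, on an axis spaced as log2(FPKM + 1). Points are libraries (Con in blue, Abx in orange, marker shape by replicate number) and bars the group means on that scale. Icos alone has all 3 Abx points below all 3 Con points.

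Icos, the inducible costimulator, reached 240.5, 289 and 287 FPKM in Con libraries 1, 2 and 3, whereas Abx libraries 1, 2 and 3 had 82.4, 115 and 120.3 FPKM. The highest Abx library lay below the lowest Con library. The mean was 106 ± 20.5 FPKM in Abx (SD, n = 3), 2.57 times below the Con mean of 272 ± 27.3 FPKM (SD, n = 3), and the difference in mean log2(FPKM + 1) was -1.37. These are the values that chose the list. Among the 8718 genes that reached 1 FPKM in 3 or more libraries, 1060 had a more negative difference, 12.2% of them.

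The other 2 listed genes of the CD28 family were measured next to Icos. Cd28, the founding costimulator of naive T cells, was at 2.31, 2.66 and 0 FPKM in Con against 22.4, 0 and 0 FPKM in the Abx libraries. Its only level above 3 FPKM came from Abx library 1, and the groups overlapped. Its difference on the log2(FPKM + 1) scale was 0.32 (standard error 1.28, limma adjusted p = 0.951), and it was -1.20 without Abx library 1 and -0.28 without Con library 3. Ctla4, the inhibitory counterpart of CD28, was at 1.16, 8.32 and 30.9 FPKM in Con against 21.4, 24.7 and 0 FPKM in the Abx libraries. Both groups held a library near or at 0 and a library above 20 FPKM, so they overlapped over most of their range. The difference of Ctla4 was -0.05 (standard error 1.49, limma adjusted p = 0.994), with 0.89 without Con library 3 and 1.47 without Abx library 3. With pseudocounts of 0.1 and 0.01 it was -0.88 and -1.95. The processed pseudogene Rpl18-ps1, at 5.75 to 23.95 FPKM, lies within Ctla4 on the same strand, so reads of both may be mixed. The 95% interval of Ctla4, from -3.53 to 3.42, holds differences of more than 2-fold in either direction.

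The genes around Cd28, Ctla4 and Icos were read beside them. Within 1 Mb of the block, 8 genes passed the filter, these 3 among them, and the groups of 7, all but Icos, overlapped. Nop58, a nucleolar protein gene upstream of the block, had a difference of 0.05 (standard error 0.51, limma adjusted p = 0.985). Eif4a-ps4, a processed pseudogene just before Cd28, had a difference of -0.18 (standard error 0.34, limma adjusted p = 0.890). Its reads may come from other copies of the sequence. These neighbours were chosen by distance after earlier results were known.

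The 4 TNF receptor superfamily members gave no call, where limma called 0.0574% of all genes tested. Tnfrsf18 was at 449, 373 and 399 FPKM in Con against 101, 430.2 and 285 FPKM in the Abx libraries. Abx library 2 lay among the Con libraries, and Abx library 1 was the lowest of all. The difference was -0.81 on the log2(FPKM + 1) scale (standard error 0.48, limma adjusted p = 0.627). It was -0.21 without Abx library 1 and -1.25 without Abx library 2. Tnfrsf4, which encodes OX40, was at 90.1, 37.1 and 37.1 FPKM in Con against 22.6, 12.1 and 68.0 FPKM in the Abx libraries. Abx library 3 was above Con libraries 2 and 3, and the difference was -0.88 (standard error 0.66, limma adjusted p = 0.706), with -0.34 without Abx library 2, -0.46 without Con library 1 and -1.54 without Abx library 3. Although adjacent, Tnfrsf18 and Tnfrsf4 kept no fixed proportion, since their FPKM ratio ran from 4.98 to 10.8 in Con and was 4.49, 35.6 and 4.19 in the Abx libraries.

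Tnfrsf9, which encodes the costimulator 4-1BB, was at 3.42, 13.3 and 22.2 FPKM in Con against 15.9, 0.03 and 0.32 FPKM in the Abx libraries. Abx libraries 2 and 3 were below every Con library, while Abx library 1 lay inside the Con range. The difference of -2.00 on the log2(FPKM + 1) scale had a standard error of 1.25 (limma adjusted p = 0.644), and it ran from -3.28 without Abx library 1 to -1.27 without Abx library 2. With pseudocounts of 0.1 and 0.01 it was -3.41 and -4.08. Tnfrsf25, the receptor of the cytokine TL1A, was at 79.6, 76.0 and 57.6 FPKM in Con against 55.6, 88.1 and 73.9 FPKM in the Abx libraries. The groups overlapped over nearly their whole range. The difference was 0.02 (standard error 0.29, the smallest of the tested members, limma adjusted p = 0.989), with a 95% interval from -0.66 to 0.70. Its sign turned, with -0.14 under quantile normalization, -0.12 without Con library 3, -0.13 without Abx library 2 and -0.01 without Abx library 3.

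The inhibitory receptors Klrg1 and Cd200r1 showed no call either, against the same 0.0574% of all genes tested. Klrg1, a receptor of cadherins that marks mature ILC2s, was at 228, 401 and 188 FPKM in Con against 174, 416 and 255 FPKM in the Abx libraries. Each group spanned more than 2-fold from its lowest to its highest library, and the groups overlapped. The difference was 0.03 (standard error 0.39, limma adjusted p = 0.986), with a 95% interval from -0.88 to 0.95. It turned to -0.10 under quantile normalization. It was also below 0 without Con library 1 (-0.06), Con library 3 (-0.19) or Abx library 2 (-0.29). Cd200r1 was at 29.1, 19.8 and 39.4 FPKM in Con against 15.3, 38.0 and 54.3 FPKM in the Abx libraries. Its lowest and its highest library were both Abx, and the difference was 0.16 (standard error 0.53, limma adjusted p = 0.939). The 95% interval of Cd200r1 ran from -1.08 to 1.40, and its difference was -0.09 without Con library 2 and -0.22 without Abx library 3.

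Tigit, an inhibitory receptor of nectins shared with T and NK cells, was at 1.96, 7.70 and 0 FPKM in Con and listed at 0 in all 3 Abx libraries. It reached 1 FPKM in 2 libraries and so was not in limma's fit. Its log2(FPKM + 1) values gave p = 0.4 in a two-sided exact permutation test, which cannot go below 0.1 with 3 libraries a group. With Con library 3 also listed at 0, the groups overlapped.

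**Figure D2:**
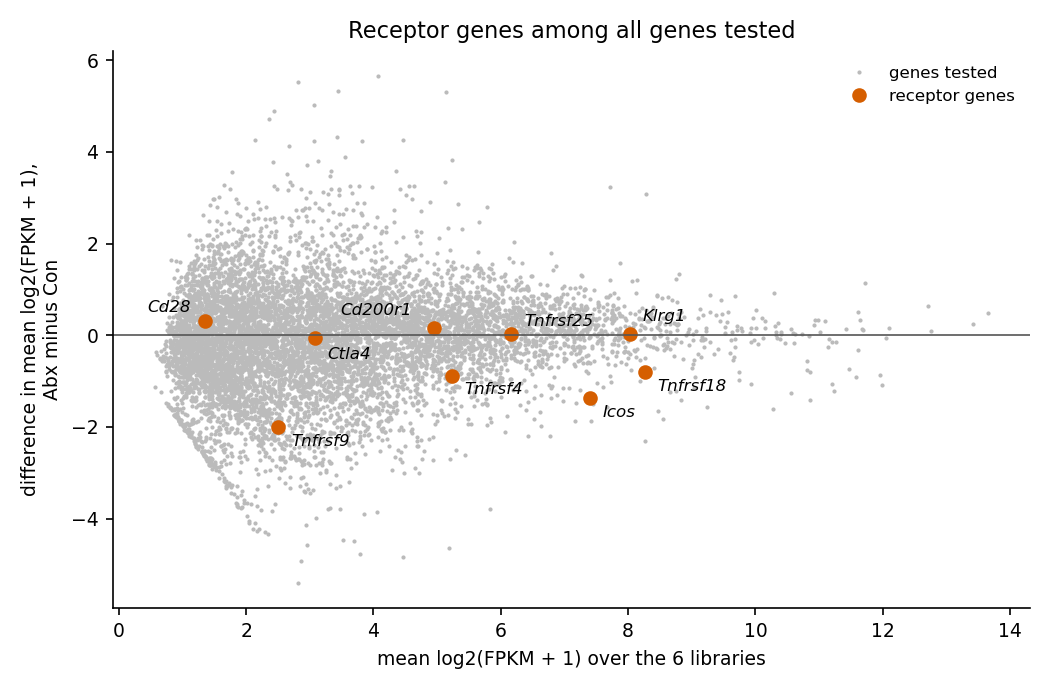
Difference in mean log2(FPKM + 1), Abx minus Con, against the mean log2(FPKM + 1) over the 6 libraries, for all 8718 genes tested (grey) and the 9 receptor genes among them (orange). Icos (-1.37), Tnfrsf18 (-0.81) and Tnfrsf4 (-0.88) lie below 0, Klrg1, Tnfrsf25 and Cd200r1 close to it, and Tnfrsf9 (-2.00) lies where low levels spread widely.

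Of the 9 members other than Icos, 8 passed the filter on low values. A call required a limma adjusted p under 0.05 together with more than a 2-fold change, and 0 of these 8 met it, 0 had an unadjusted p under 0.05, and 0 had groups that did not overlap. Over all genes tested, 0.0574% were called (0.0459% higher and 0.0115% lower in Abx), 11.0% had an unadjusted p under 0.05 (4.74% higher and 6.25% lower in Abx) and 17.2% had groups that did not overlap, 8.73% with Abx lower and 8.49% with Abx higher. The difference was above 0 in 4 of the 8 genes and below 0 in 4, with a median of -0.02 against -0.06 for all genes tested. These counts over genes past a filter are a description. At this replication the intervals of Tnfrsf18, Tnfrsf4, Tnfrsf9, Cd28, Ctla4 and Cd200r1 still hold a 2-fold fall. A fall of that size is neither shown nor shown to be absent for them.

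**Figure D3:**
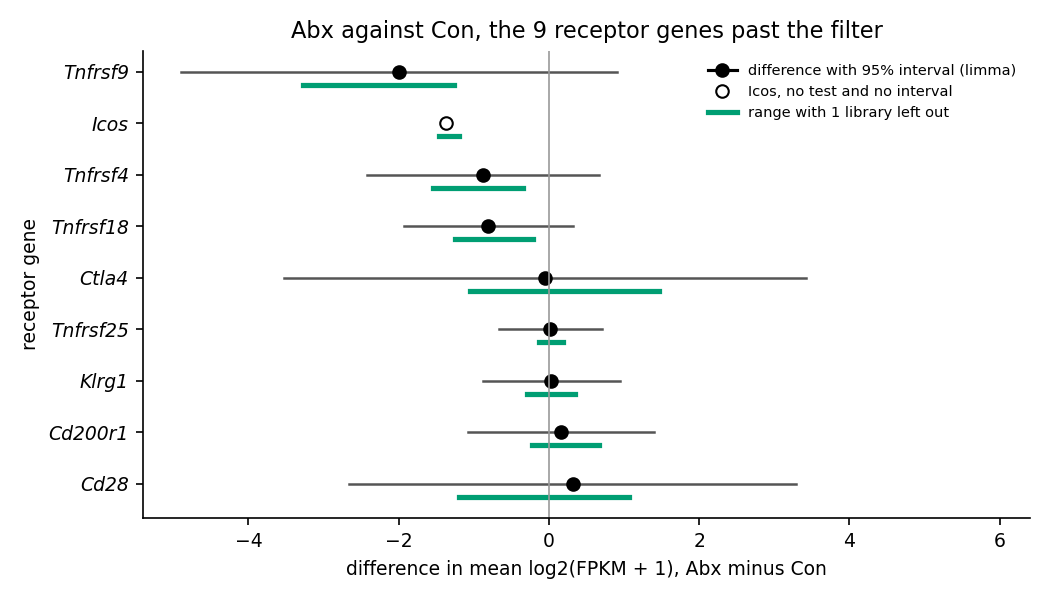
Difference in mean log2(FPKM + 1), Abx minus Con, for the 9 receptor genes past the filter. Black points carry limma's 95% interval, the open point is Icos without test or interval, and green bars give the range with 1 library left out in turn. The green bars of Icos (-1.47 to -1.20), Tnfrsf4, Tnfrsf18 and Tnfrsf9 stay below 0 and the others cross it.

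Ratios within a library are free of the scaling between libraries. The FPKM of Icos relative to Tnfrsf25 was 3.02, 3.80 and 4.98 in Con libraries 1 to 3 against 1.48, 1.303 and 1.63 in the Abx libraries, with no overlap. Relative to Klrg1 it was 1.06, 0.720 and 1.52 in Con libraries 1 to 3 against 0.474, 0.276 and 0.471 in the Abx libraries, again with no overlap. Relative to Tnfrsf18 it was 0.536, 0.773 and 0.719 in Con libraries 1 to 3 against 0.813, 0.267 and 0.422 in the Abx libraries, and here Abx library 1, where Tnfrsf18 was also low, was above every Con library. These ratios use the value of Icos that chose the list and were not tested.

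Over all 10 genes the summed FPKM was 1125, 1228 and 1061 in the Con group but 511, 1124 and 857 in the Abx group. Without Icos it was 884, 939 and 774 FPKM in the Con group but 428, 1009 and 736 FPKM in the Abx group, so 1 Abx library was above all Con libraries and 2 were below. Icos made up 21.4%, 23.5% and 27.0% of the sum in Con and 16.1%, 10.2% and 14.0% in Abx. Klrg1 made up 20.3%, 32.7% and 17.7% in Con libraries 1 to 3 against 34.0%, 37.0% and 29.8% in the Abx libraries. The share of Tnfrsf18 was 39.9%, 30.4% and 37.6% in Con libraries 1 to 3 against 19.8%, 38.3% and 33.2% in the Abx libraries. All 10 receptors were at 1 FPKM or more in Con libraries 1 and 2, and 8 in Con library 3. In the Abx libraries 9, 7 and 6 were, where the number of genes of any kind at 1 FPKM was also lower.

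**Figure D4:**
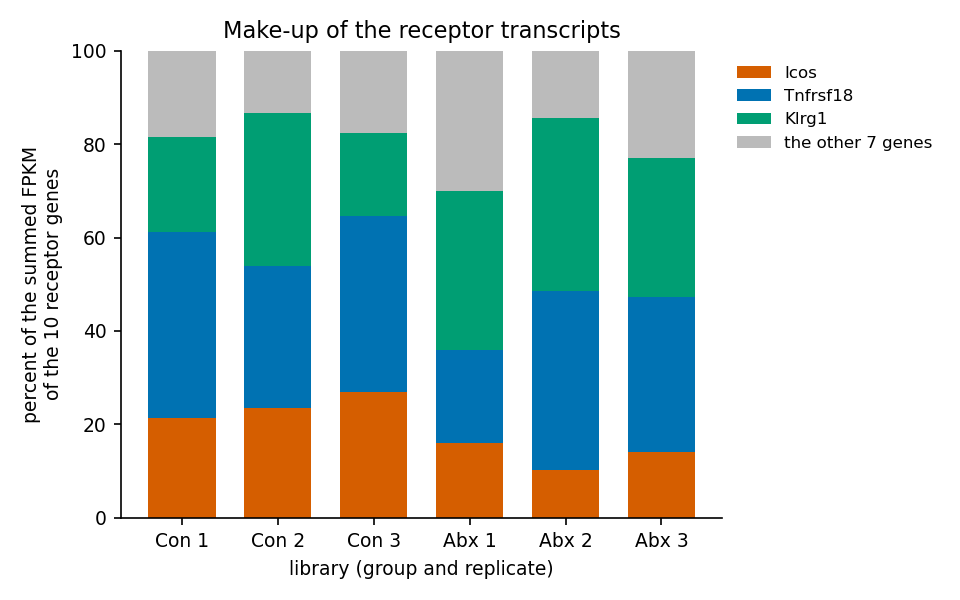
Percent of the summed FPKM of the 10 receptor genes taken by Icos, Tnfrsf18, Klrg1 and the other 7, with 1 bar per library. The Icos part is 21.4% to 27.0% in Con and 10.2% to 16.1% in Abx, and Abx library 1 has the smallest Tnfrsf18 part.

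The pathway around these receptors was followed in 55 further genes. For 13 ligands of the members, 8 stayed under 1 FPKM in all libraries, among them Cd80 and Cd86 (ligands of CD28 and CTLA-4), Tnfsf18 (of GITR) and Tnfsf15 (of DR3). Icosl, the ICOS ligand, was at 5.70, 8.84 and 11.8 FPKM in Con against 6.68, 3.39 and 13.2 FPKM in the Abx libraries. Its groups overlapped, with a difference of -0.27 (standard error 0.71, limma adjusted p = 0.917). Tnfsf9, the ligand of 4-1BB, ranged from 16.2 to 36.9 FPKM in Con and was at 66.3, 17.7 and 0 FPKM in Abx.

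Tnfsf4, which encodes the OX40 ligand, was at 10.8, 22.8 and 6.46 FPKM in Con against 0, 0.04 and 0 FPKM in the Abx libraries. All 3 Con libraries were above all 3 Abx libraries, as for 8.73% of all genes tested. The difference on the log2(FPKM + 1) scale was -3.66 (standard error 0.70, limma adjusted p = 0.0911), short of the threshold. Tnfsf4 passed the filter only through its Con libraries, so it had to differ to be tested. Its receptor Tnfrsf4 overlapped between the groups, as given above.

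Of 20 other costimulatory and inhibitory receptors, 10 were tested and 0 were called by limma, against 0.0574% of all genes tested. The median difference was 0.72. An unadjusted p under 0.05 was found for 4, all higher in Abx, where 4.74% of all genes tested had one. These 4 were Cd200r4, Cd2, Slamf6 and Cd48. The count and the median include Slamf6, which had to be high in Abx to be tested. Cd48 overlapped between the groups (limma adjusted p = 0.442). Cd200r4, an activating paralog of Cd200r1, was at 59.95, 39.4 and 72.9 FPKM in Con against 126, 166 and 125 FPKM in the Abx libraries. The groups did not overlap, which held with Abx higher for 8.49% of all genes tested. The difference was 1.29 (standard error 0.31, limma adjusted p = 0.128). Reads may be shared within this gene family, so the split between Cd200r1 and Cd200r4 is uncertain. Cd2, an adhesion receptor of T and NK cells, was at 8.40 to 14.4 FPKM in Con and at 20.9 to 38.5 FPKM in Abx, with a difference of 1.3 (standard error 0.46, limma adjusted p = 0.306). Slamf6, a receptor of the SLAM family, was at 0, 0.01 and 1.21 FPKM in Con against 10.5, 7.53 and 2.57 FPKM in the Abx libraries, with a difference of 2.43 (standard error 0.72, limma adjusted p = 0.205), and its Abx libraries alone were enough to pass the filter. The T cell component Cd3d moved the same way, from 4.46 to 8.32 FPKM in Con to 37.2 to 108 FPKM in Abx. In the T cell list, 5 of the 6 genes tested were higher in Abx and 1 was lower. Cd3e overlapped between the groups (1.55 to 7.57 FPKM in Con, 4.31 to 18.5 FPKM in Abx), as did Trac (3.01 to 11.7 FPKM and 0.22 to 21.2 FPKM). The part of T cell transcripts in these values was not tested. Pdcd1, which encodes the checkpoint PD-1, was at 81.9, 94.5 and 94.8 FPKM in Con against 91.0, 56.6 and 17.3 FPKM in the Abx libraries, and its groups overlapped (limma adjusted p = 0.595).

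Of 22 signalling partners, 19 were tested, with 13 below 0 and 6 above. Limma called 0 of them, against 0.0574% of all genes tested. An unadjusted p under 0.05 was found for 1, against 11.0% of all genes tested. That gene was Grb2, an adaptor that binds the CD28 tail, named after its values were seen, at 79.1, 84.6 and 77.0 FPKM in Con against 46.6, 42.2 and 61.9 FPKM in the Abx libraries. Its groups did not overlap, which held with Abx lower for 8.73% of all genes tested. The difference was -0.68 (standard error 0.27, limma adjusted p = 0.400). Dok2, the adaptor downstream of the CD200 receptor, was at 162, 185 and 108 FPKM in Con against 173, 118 and 141 FPKM in the Abx libraries, which overlap. Over the 32 pathway genes tested, 0 were called, against the same 0.0574%. The difference was above 0 in 14 and below 0 in 18, with a median of -0.14.

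**Figure D5:**
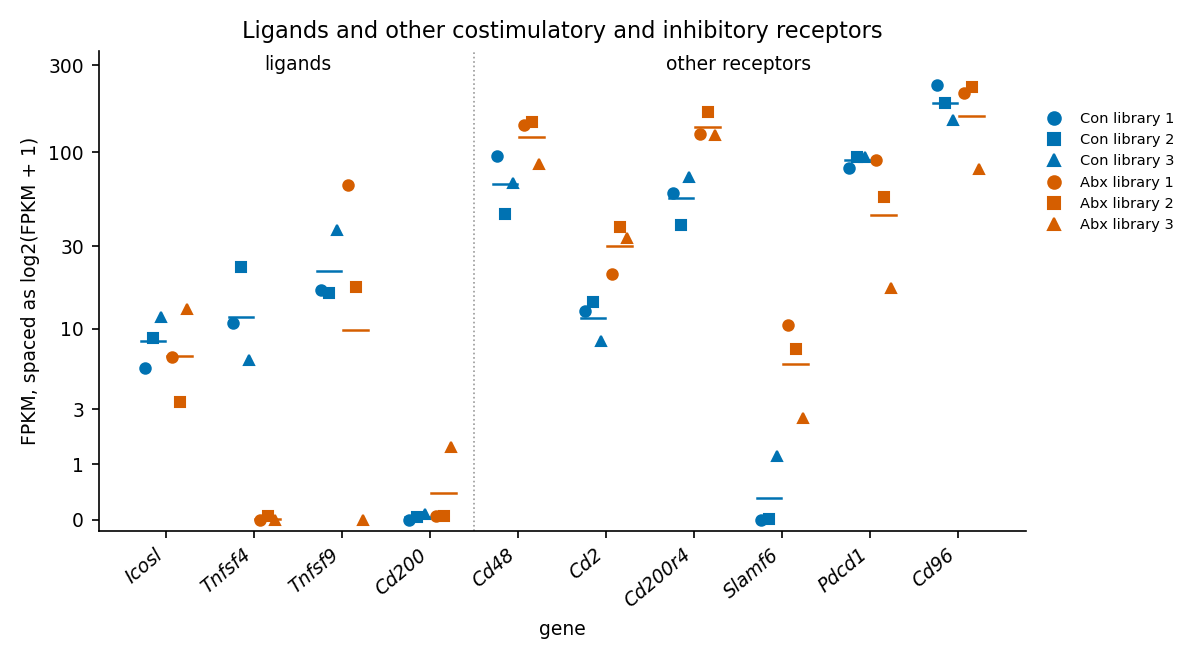
FPKM of 4 ligands and 6 other receptors in each library, on an axis spaced as log2(FPKM + 1), with Con in blue, Abx in orange, marker shape by replicate number and bars at the group means. Tnfsf4 is at or near 0 in the Abx libraries, and Cd2, Cd200r4 and Slamf6 have all Abx points above all Con points. Such a separation held for 8.49% of all genes tested, and the Abx libraries alone were enough for Slamf6 to pass the filter.

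Regulatory T cells carry most of these receptors as well, and their markers were read beside them. Foxp3, their defining factor, was at 0.15 to 0.44 FPKM in Con and at 0 to 0.67 FPKM in Abx, Il10 and Izumo1r were listed at 0 in every library, and 4 of the 7 markers stayed under 1 FPKM throughout. The summed level of the list, 50.9 to 72.2 FPKM in Con and 1.67 to 51.2 FPKM in Abx, came mostly from Ebi3 in the Con libraries and in Abx library 2. Of the 7 NK cell markers, 4 were listed at 0 in every library, among them Klrb1c, which encodes NK1.1, while Gzma was at 0 to 13.8 FPKM in Con and 215 to 224 FPKM in Abx.

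The genes whose pattern over the 6 libraries lay closest to that of Icos were Cdkn1a, St6gal1, Csrnp1, Stab2 and Dclre1c, by the root mean square difference of log2(FPKM + 1) after each gene was centred on its own mean. This difference was 0.13 for Cdkn1a, an inhibitor of the cell cycle, 0.14 for St6gal1 and Csrnp1, 0.16 for Stab2 and 0.17 for Dclre1c. None of the receptors was among these 5. With 5 genes named out of 8718 tested, this cannot show whether the receptors varied with Icos. Cdkn1a was at 595, 582 and 677 FPKM in Con against 213, 258 and 321 FPKM in the Abx libraries. The genes were found by their likeness to Icos, so their own differences carry no test.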

How the data were processed

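SMART-seq libraries of 1000 sorted lung ILC2s (3 Abx, 3 Con) were analysed from gene tables of FPKM, 1 table per library. Per the methods and the file headers, the authors trimmed reads with Cutadapt, mapped them with HISAT2 and computed the deposited FPKM values per gene with StringTie. The methods name a human Ensembl annotation, the submitters' processing notes name Bowtie 0.12.2, mm8 and mm9, and the genes carry mouse Ensembl identifiers, so coordinates were taken from GENCODE M21 (GRCm38), which holds 55134 of the 55394 identifiers. No strand setting is given, and Tnfrsf18 and Tnfrsf9 overlap genes on the other strand (Gm16008, at most 14.3 FPKM, and Camta1, at most 1.92 FPKM). On the same strand, Rpl18-ps1 lies within Ctla4, and Gm37039 (at most 1.66 FPKM) overlaps Icos. The study's DESeq2 step needs read counts and was not repeated.

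The 8718 genes that reached 1 FPKM in 3 or more libraries were fitted on log2(FPKM + 1) with limma 3.58.1 (R 4.3.3; lmFit, eBayes with trend), two-sided, with Benjamini-Hochberg adjustment over all of them, and a call needed both an adjusted p under 0.05 and more than a 2-fold change. A difference on this scale understates the change of low genes. Intervals are limma's, at 95%. Tables used Python 3.11.15 and pandas 2.3.3. The members and lists were chosen with earlier results of these data known. Named were the 10 members, of the pathway list the genes called or otherwise the 4 with the largest difference whose groups did not overlap, and the 5 genes closest to Icos; other pathway genes were named after their values were seen. The marker sums without Ighm, Arg1, Areg or Sftpc were chosen after seeing the data. Alternatives were other pseudocounts, scalings and filters, robust variance, other call limits, each library left out, and the replicate number as a block. Protein sequences were not used here.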

Additional observations from a re-analysis of the deposited data

How the results depend on the processing

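No member other than Icos was called in the main run (0 of 8) or in any alternative, and their adjusted p stayed at 0.242 or more. Many alternatives called 0 genes of any kind, as listed below. In those runs the absence of calls among the members had to follow and says nothing particular about them. Icos ranged from -1.49 to -1.20. Over all genes, 5 were called, and 5 also with robust variance or the adjusted p alone. The count was 7 with quantile normalization or a mean of at least 5 FPKM. It was 0 with pseudocounts of 0.1 or 0.01, median centring, no filter on low values or the replicate block. With 1 library left out it was 0 to 2. An unadjusted p under 0.05 with the same fold limit gave 814 (315 higher, 499 lower). In the pathway list 0 were called, against 4 with an unadjusted p under 0.05 and the same fold limit. The median over the 9 members past the filter, Icos included, was -0.05, against -0.81 and -0.91 with pseudocounts of 0.1 and 0.01 and -0.43 both without a filter and with a mean of at least 5 FPKM. It was -0.76 to -0.09 with 1 library left out. At the smaller pseudocounts Ctla4 went to -0.88 and -1.95 and Tnfrsf9 (-2.00) to -3.41 and -4.08. The replicate numbers left no trace of pairing in the values. Deviations of same-numbered libraries from their group means correlated across genes at -0.02, -0.03 and 0.01. Such correlations cannot show that the libraries were unpaired. The replicate block, which called 0 genes of any kind, changed no call of a member. Members near 0 changed sign. Cd28 (0.32) went to -0.52 and -1.60 with pseudocounts of 0.1 and 0.01 and ranged from -1.20 to 1.07 with 1 library left out. Ctla4 (-0.05) went to 0.05 under quantile normalization and ranged from -1.05 to 1.47 with 1 library left out. Klrg1 (0.03) went to -0.10 under quantile normalization and ranged from -0.29 to 0.35. Tnfrsf25 (0.02) went to -0.14 under quantile normalization and ranged from -0.13 to 0.19. Cd200r1 (0.16) ranged from -0.22 to 0.66. Read depth is unknown, so precision at low FPKM cannot be given.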
